A study of Mus musculus with 7 samples.

Results

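The genes described are 10 that mark dendritic cells by lineage or by maturation: Flt3, Zbtb46, Xcr1, Clec9a, Batf3, Cd209a, Ccr7, Fscn1, Ccl22 and Cd83. They were taken by gene symbol from a table of 24421 genes counted in 7 mouse tumours, and all 10 symbols were present. Of these, 5 (Zbtb46, Ccr7, Fscn1, Ccl22 and Cd83) had enough reads for the test across 13545 genes. Flt3, Xcr1, Clec9a and Batf3 fell below the count filter, and Cd209a was listed at 0 in every library.

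Anti-PD-1, an antibody to a checkpoint receptor on T cells, went to every mouse of both groups. The 3 controls had it together with anti-KLH, whose target mice lack. The 4 mice of the anti-LAIR1 group had it together with an antibody to LAIR1, a leukocyte receptor that binds collagen and dampens activation. Every tumour was taken at week 4, from its own mouse. The series describes 344SQ tumours, from a lung cancer line of K-rasLA1/+p53R172H∆g/+ mice grown under the skin of male and female 129/Sv mice 6 to 8 weeks old, with doses of 10 mg/kg (anti-LAIR) and 8 mg/kg (anti-PD-1). It also describes lung tumours of KrasLSL-G12D/p53fl/fl mice given adenovirus-cre through the trachea at 3 to 4 months of age and treated 2 months later. The labels do not say which kind these 7 tumours were. Mouse names start with WTSV in the treated group and with LOHM or KWM in the controls, so whatever these prefixes stand for cannot be told apart from the treatment.

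Dendritic cells take up antigen in tissue, mature, and carry it to lymph nodes, where they prime T cells. Conventional dendritic cells depend on the growth factor receptor Flt3 and express the transcription factor Zbtb46. One lineage, which requires the transcription factor Batf3, bears the chemokine receptor Xcr1 and the dead-cell receptor Clec9a and presents tumour antigen to cytotoxic T cells. A further lineage is marked by lectins such as Cd209a, and maturing cells of either lineage switch on Ccr7, Fscn1, Ccl22 and Cd83.

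Total counts ran from 9879762 to 26255727 per library. Levels are given as CPM, read counts divided by the TMM-adjusted library total, and 3 counts were worth from 0.119 to 0.305 CPM depending on the library, a figure that covers counting error only. Control replicate 3 held epidermal transcripts (summed level of the skin list 135 CPM, against 14.9 to 36.6 in the other libraries). Anti-LAIR1 replicates 1, 3 and 4 held skeletal muscle transcripts (summed 89.5 to 126 CPM, against 10.8 to 15.6 in the other 4). Anti-LAIR1 replicate 2 held fat transcripts (47.4 CPM, against 3.4 to 9.95). In whole tumours, fewer cells of a type and less RNA per cell cannot be told apart.

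Treated and control tumours were compared to see what the LAIR1 antibody changed where PD-1 was already blocked. None of the 5 tested members passed edgeR's quasi-likelihood test at an adjusted p under 0.05, and neither did any of the 13545 genes (0% called), although 697 genes (5.15%) had an unadjusted p under 0.05. DESeq2, run as an alternative, called 0.39% of the genes to which it gave an adjusted p and none of the members. Of the tested members, 4 had a positive log2 fold change, against 49.1% of all genes. The members' median was 0.45, against 0 over all genes. The median was 0.17 without anti-LAIR1 replicate 4, over 4 members since Ccl22 then fell below the count filter, and 0.96 over all 5 without control replicate 2. With Ptprc or muscle level as a covariate it was 0.15 or 0.11. Cd83 was the 1 member with an unadjusted p under 0.05, on the higher side, where 3.51% of all genes also lay (1.63% lay on the lower side). In none of the 10 did the groups separate, against 5.57% of tested genes (3.06% as higher and 2.51% as lower).

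**Figure D1:**
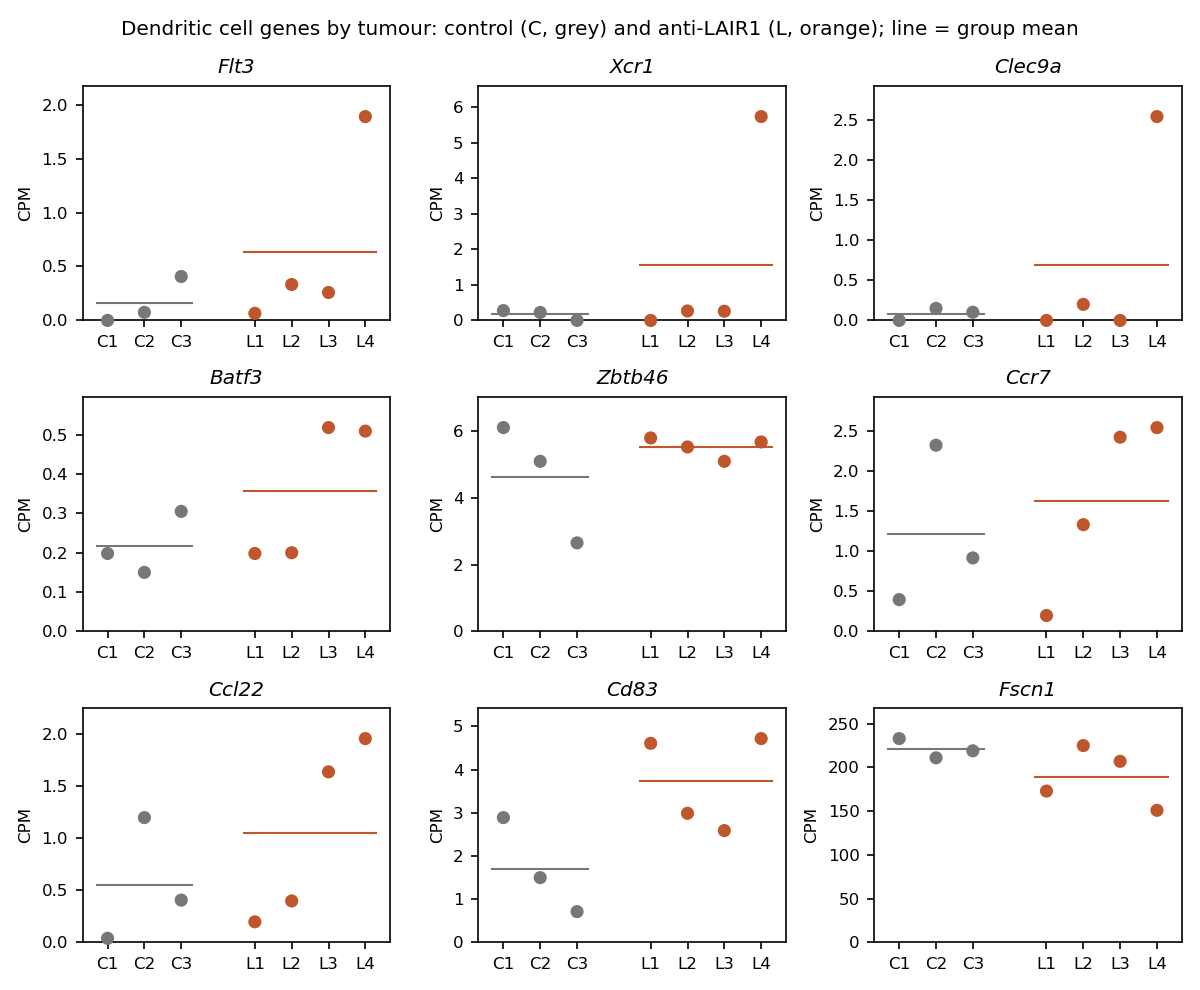
Level of 9 members in each tumour in CPM (vertical axes start at 0 and differ between panels), controls C1 to C3 in grey and anti-LAIR1 libraries L1 to L4 in orange, with a line at each group mean. Flt3, Xcr1 and Clec9a stand high in L4 alone, Ccr7 and Ccl22 are high in C2, L3 and L4, and Fscn1 is lowest in L4.

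Xcr1 and Clec9a, the receptors that mark the Xcr1-bearing lineage, had no more than 7 reads in any tumour but 1. Xcr1, the receptor for the chemokine Xcl1 (chromosome 9, 123852315 to 123862029, GRCm38, as all positions here), had 7, 3 and 0 reads in control replicates 1, 2 and 3. It had 0, 4, 3 and 79 reads in anti-LAIR1 replicates 1, 2, 3 and 4. The last library, at 5.74 CPM, held 82.3% of all Xcr1 reads. It stood 20.7 times above the next highest library, control replicate 1 at 0.277 CPM, with an exact 95% counting interval of 9.6 to 53.2. The other 3 treated tumours, from 0 to 0.266 CPM, lay within the range of the controls.

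Clec9a, a receptor for actin exposed by dead cells (chromosome 6, 129408862 to 129424764), was highest in the same library. Its read counts were 0, 2 and 1 in the controls and 0, 3, 0 and 35 in anti-LAIR1 replicates 1 to 4. At 2.54 CPM, anti-LAIR1 replicate 4 was 12.7 times above the next library (exact 95% counting interval 4.02 to 64.8) and held 85.4% of the reads. Both genes were therefore detected clearly in a single treated tumour, and a group mean for either describes that tumour only.

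The promoter windows of these genes are shown because both stood out in the same library. They come from RefSeq (build GRCm38.p6), run from 250 bases before to 50 after the annotated start, and are written 5′ to 3′ on the gene's strand. Xcr1 is chr9:123861980-123862279 (minus strand) and Clec9a is chr6:129408612-129408911 (plus strand). Neither window holds any of 4 motifs searched on both strands, so no base is in capitals. The motifs were an interferon response type (held by 3.44% of all 32851 windows), a kappa B type (5.56%), the AP-1 type TGANTCA (7.81%) and the PU.1 type GAGGAAGT (3.2%).
Xcr1: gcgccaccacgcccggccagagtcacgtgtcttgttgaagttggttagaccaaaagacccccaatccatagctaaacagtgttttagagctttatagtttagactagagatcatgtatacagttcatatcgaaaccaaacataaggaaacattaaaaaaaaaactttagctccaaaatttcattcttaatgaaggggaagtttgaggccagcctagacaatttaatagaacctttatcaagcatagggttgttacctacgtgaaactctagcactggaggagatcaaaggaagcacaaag
Clec9a: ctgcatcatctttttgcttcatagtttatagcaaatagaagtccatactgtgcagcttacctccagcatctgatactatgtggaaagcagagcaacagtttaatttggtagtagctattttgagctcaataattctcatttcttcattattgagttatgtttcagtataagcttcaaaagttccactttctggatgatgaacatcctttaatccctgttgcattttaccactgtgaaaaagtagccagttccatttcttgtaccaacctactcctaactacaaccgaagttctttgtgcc

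Flt3, the receptor whose ligand drives dendritic cell development (chromosome 5, 147330741 to 147400489), was also highest in anti-LAIR1 replicate 4. Reads numbered 0, 1 and 4 in the controls and 1, 5, 3 and 26 in anti-LAIR1 replicates 1 to 4. Its 1.89 CPM in the last library was 4.64 times the level of the next, control replicate 3 (exact 95% counting interval 1.61 to 18.3). Without that library, the treated tumours ranged from 0.0658 to 0.333 CPM and the controls from 0 to 0.407, so they overlapped fully.

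Batf3, the transcription factor required by the Xcr1-bearing lineage (chromosome 1, 191098414 to 191108943), did not share this pattern. It had 5, 2 and 3 reads in the controls and 3, 3, 6 and 7 in anti-LAIR1 replicates 1 to 4. The levels, from 0.15 to 0.305 CPM in controls and from 0.198 to 0.518 CPM in the treated group, overlapped and were near those of 3 counts. When the count filter was dropped, edgeR estimated the Batf3 difference at 0.71 ± 0.79 (log2, SE, adjusted p = 0.932). In the same fit Xcr1 was at 2.99 ± 1.84 and Flt3 at 2.27 ± 1.33, each with an adjusted p of 0.918.

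Cd209a, a pathogen-binding lectin of the other conventional lineage and of monocyte-derived cells (chromosome 8, 3743395 to 3748984), had 0 reads in all 7 libraries. It belongs to a family of similar neighbouring genes, and the counting of reads that match more than 1 gene is not recorded in the labels. Of 6 other family members in the table, Cd209f and Cd209g passed the count filter. Cd209g had 0.119, 0.673 and 0.204 CPM in the controls and 0.198, 1.86, 4.75 and 1.09 CPM in anti-LAIR1 replicates 1 to 4. Its highest library was anti-LAIR1 replicate 3, not 4 (log2 difference 2.61 ± 1.04, SE, edgeR adjusted p = 0.944). Because family members can share reads, these levels are uncertain.

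Zbtb46, the transcription factor common to conventional dendritic cells and also made by endothelium (chromosome 2, 181371009 to 181493262), was the steadiest member of the lineage group. Controls had 6.1, 5.09 and 2.65 CPM, and anti-LAIR1 replicates 1 to 4 had 5.79, 5.52, 5.09 and 5.67 CPM. Only control replicate 3, the library with epidermal transcripts, was low, and the part of those transcripts was not tested. The difference was 0.23 ± 0.27 (log2, SE, edgeR adjusted p = 1), and without control replicate 3 it was -0.03. The tumour with by far the most Xcr1 and Clec9a reads had a Zbtb46 level within the range of the others. The endothelial genes Pecam1 and Cdh5 had differences of 0.49 and 0.38 on the log2 scale (edgeR adjusted p = 0.933 for each).

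Zbtb46 was the 1 member of the 8 with a promoter window in the RefSeq table to hold a searched motif, an AP-1 type TGACTCA. It is shown in capitals in the window below, chr2:181424339-181424638 (minus strand), which lies at an annotated start inside the gene.
Zbtb46: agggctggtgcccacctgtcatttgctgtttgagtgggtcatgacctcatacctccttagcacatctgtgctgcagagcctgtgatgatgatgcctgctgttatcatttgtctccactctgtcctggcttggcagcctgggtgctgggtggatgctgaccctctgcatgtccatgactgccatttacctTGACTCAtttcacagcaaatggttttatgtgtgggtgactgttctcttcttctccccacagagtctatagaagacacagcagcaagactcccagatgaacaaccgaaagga

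Among the maturation genes, Cd83, a surface glycoprotein of mature dendritic cells that other activated leukocytes also carry (chromosome 13, 43785112 to 43803133), differed most clearly between the groups. Controls had 2.89, 1.5 and 0.713 CPM (mean 1.7 ± 1.1, SD, n = 3). Anti-LAIR1 replicates 1 to 4 had 4.61, 2.99, 2.59 and 4.72 CPM (mean 3.73 ± 1.1, SD, n = 4). Replicate 3 of the treated group lay below control replicate 1, so the groups overlapped by 1 library. The difference was 1.06 ± 0.44 (log2, SE), with an unadjusted edgeR p of 0.0372 and an adjusted p of 0.947. Over the alternatives it stayed positive, from 0.15 with Ptprc as a covariate to 1.71 without control replicate 1. Its unadjusted edgeR p was 0.0799 without anti-LAIR1 replicate 4. Nor was that p under 0.05 without anti-LAIR1 replicate 1 or without control replicate 2 or 3. The same held with Ptprc or muscle level as a covariate, and with counts thinned to the smallest library total.

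Ccr7, the receptor that guides mature dendritic cells and naive T cells to lymph nodes (chromosome 11, 99144199 to 99155077), did not follow treatment. Controls had 0.396, 2.32 and 0.916 CPM and anti-LAIR1 replicates 1 to 4 had 0.198, 1.33, 2.42 and 2.54 CPM. The lowest library and the highest were both from treated mice. The difference was 0.45 ± 0.8 (log2, SE, edgeR adjusted p = 1), and it was -0.05 without control replicate 1.

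Ccl22, a chemokine that attracts T cells bearing Ccr4 (chromosome 8, 94745684 to 94751388), showed a similar order of tumours. Controls had 0.0396, 1.2 and 0.407 CPM and anti-LAIR1 replicates 1 to 4 had 0.198, 0.399, 1.64 and 1.96 CPM. For Ccr7 and Ccl22 alike, the 3 highest libraries were, in falling order, anti-LAIR1 replicate 4, anti-LAIR1 replicate 3 and control replicate 2. They held 35, 28 and 31 reads for Ccr7 and 27, 19 and 16 for Ccl22. With so few reads the order among these 3 is uncertain. Ccl22 differed by 1.02 ± 1.03 (log2, SE, edgeR adjusted p = 1), from 0.31 without control replicate 1 to 2.56 without control replicate 2. It was -0.39 with muscle level as a covariate, and without anti-LAIR1 replicate 3 or 4 the gene fell below the count filter. Of 12 B cell and lymph node genes, 10 had under 10 reads over all 7 libraries, with none for Ms4a1, Glycam1, Chst4 and Ccl21a. The list summed to 0.204 to 0.598 CPM in controls and 0.658 to 3.11 CPM in the treated group, highest in anti-LAIR1 replicate 3. Cxcl13, a chemokine that attracts B cells and is on that list, had 0.0396, 0.374 and 0 CPM in controls and 0.658, 1.26, 1.9 and 0.509 CPM in the treated tumours, which separated. It was singled out after its values were seen, and its part in the levels of Ccr7 and Ccl22 was not tested.

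Fscn1 was far more abundant than the other members and did not share their order of libraries. It encodes fascin, an actin-bundling protein of mature dendritic cells that carcinoma and stromal cells also make (chromosome 5, 142960355 to 142973189). Controls had 233, 211 and 219 CPM and anti-LAIR1 replicates 1 to 4 had 173, 225, 207 and 151 CPM. Divided by exon length in GENCODE M21, its level was between 50.1 and 77.4 CPM per kilobase, whereas no other member exceeded 1.84 CPM per kilobase in any library. Its lowest value was in the tumour where Xcr1, Clec9a, Flt3, Ccr7, Ccl22 and Cd83 were highest. The difference was -0.23 ± 0.13 (log2, SE, edgeR adjusted p = 0.98), and it turned to 0.12 with Ptprc and 0.07 with muscle level as a covariate.

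On the same scale per kilobase, the other members were ordered by their median over libraries as Cd83 (1.12), Ccr7 (0.672), Zbtb46 (0.649), Ccl22 (0.175), Batf3 (0.125), Xcr1 (0.0582), Flt3 (0.0419) and Clec9a (0.031). The ranges of neighbours in this order overlapped. In anti-LAIR1 replicate 4 alone the order differed, since Xcr1 reached 1.29 CPM per kilobase, next to Ccr7 at 1.28 and below Cd83 at 1.84. These lengths are the union of annotated exons, which may differ from the authors' annotation.

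**Figure D2:**
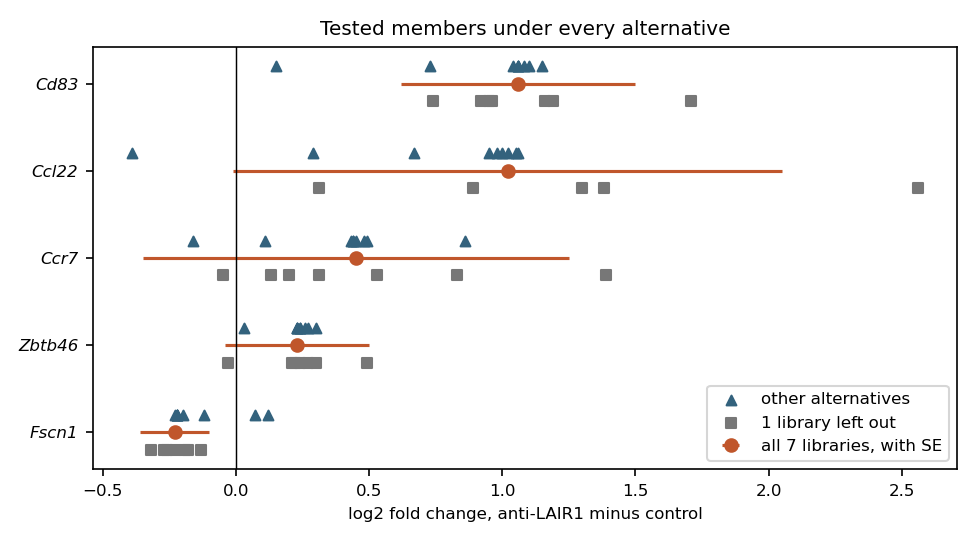
Log2 fold change (anti-LAIR1 minus control, horizontal axis) of the 5 tested members: circles show the fit of all 7 libraries with its SE, squares fits without 1 library, and triangles the other alternatives. Cd83 stays above 0 throughout, while Zbtb46, Ccr7, Ccl22 and Fscn1 each cross 0 at least once.

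Leukocyte transcripts also differed between the tumours. Ptprc, the pan-leukocyte phosphatase CD45, had 28.3, 24.2 and 24.9 CPM in the controls and 48.2, 34.1, 31.3 and 56.7 CPM in anti-LAIR1 replicates 1 to 4. The groups separated, by 0.72 ± 0.21 (log2, SE, edgeR adjusted p = 0.762). Each member was therefore also set against Ptprc in the same library, as a difference of log2 CPM with a prior count of 2.

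Relative to Ptprc, Cd83 was nearly level in the treated tumours, from -3.55 to -3.35, and spread from -4.89 to -3.23 in the controls. Its group means on this scale were -3.47 ± 0.09 (SD, n = 4) and -4.01 ± 0.83 (SD, n = 3). Fscn1 relative to Ptprc was 3.03 to 3.13 in controls and 1.41 to 2.72 in treated tumours. Ptprc alone separates the groups while Fscn1 in CPM does not, so this gap is no result about Fscn1. Xcr1 relative to Ptprc was still highest in anti-LAIR1 replicate 4, at -3.28 against -8.49 to -6.09 elsewhere. That library had the most Ptprc, and its Xcr1 level stood above the rest by more than its Ptprc level did. Zbtb46 relative to Ptprc was lowest there, at -3.29, with control replicate 3 next at -3.17.

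**Figure D3:**
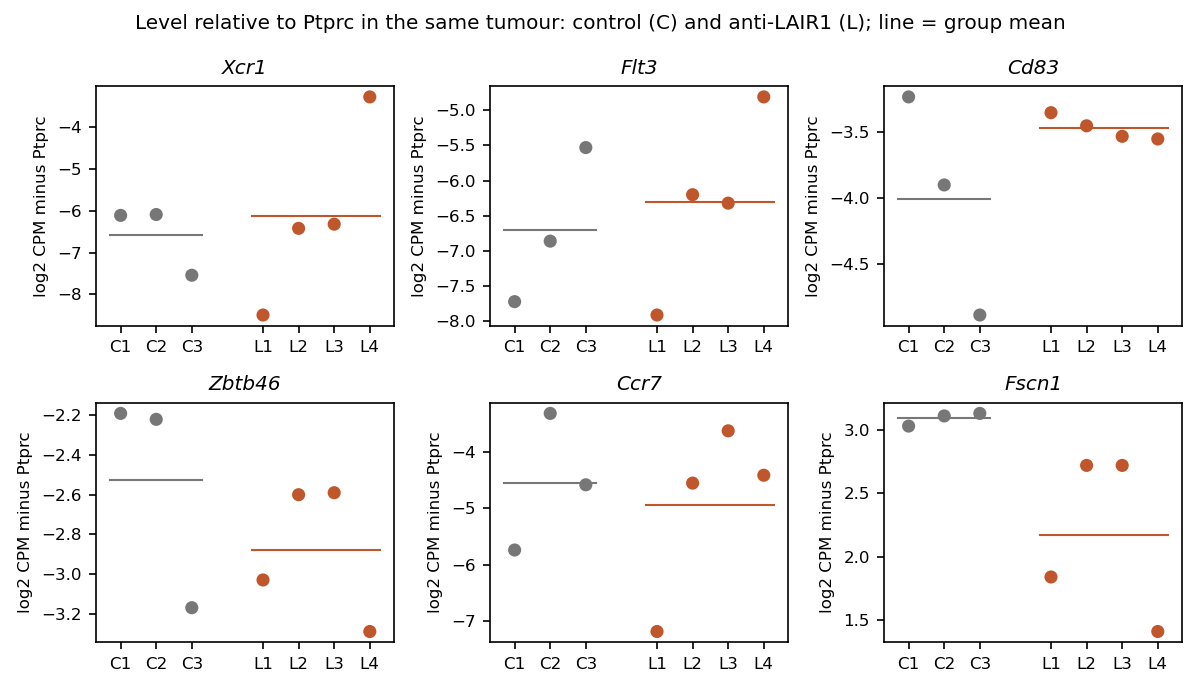
Log2 CPM of 6 members minus log2 CPM of Ptprc in the same tumour (vertical axes differ between panels), controls C1 to C3 in grey and anti-LAIR1 libraries L1 to L4 in orange, with a line at each group mean. Xcr1 stands apart in L4 at -3.28, Cd83 is level across L1 to L4, and Fscn1 falls to 1.41 in L4, where Ptprc is highest.

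Other genes of conventional dendritic cells divided in the same way. Of 23 listed, 19 were tested and 16 had a positive log2 fold change. The list median was 0.53, and it was 0.27 without anti-LAIR1 replicate 4, 0.26 with muscle level and 0.19 with Ptprc as a covariate. None passed the adjusted test, and 8 had an unadjusted p under 0.05, all higher, where 3.51% of all genes were. Groups separated as higher in 5 (Itgax, Wdfy4, Mgl2, Sirpa and Ifi205), against 3.06% of all tested genes. The count of 8 was 5 without anti-LAIR1 replicate 4, 4 without control replicate 2, 5 without control replicate 3, 3 with muscle level as a covariate and 1 with Ptprc as a covariate. The count over all genes on the higher side fell too, from 476 of 13545. In the same order it was 382 of 13510, 323 of 13867, 422 of 13829, 197 of 13545 and 392 of 13545. The list count was 9 without anti-LAIR1 replicate 3 (569 of 13538 over all genes) and with scaling by library totals alone (577 of 13545).

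Itgae, the integrin CD103 (carried by the Xcr1-bearing lineage and by some T cells), repeated the single-tumour pattern. It had 0.475, 0.898 and 1.32 CPM in controls and 0.527, 1.4, 1.04 and 9.88 CPM in anti-LAIR1 replicates 1 to 4. Wdfy4, which that lineage needs to present antigen from dead cells, had 8, 6.66 and 8.55 CPM in controls and 8.82, 9.51, 9.67 and 35.4 CPM in the treated tumours. Their log2 fold changes were 1.91 and 1.04, and without anti-LAIR1 replicate 4 they were 0.21 and 0.27. Irf8, a transcription factor of the same lineage that macrophages also express, had 22.8, 8.45 and 19.1 CPM in controls and 33.2, 22.4, 18.3 and 63.6 CPM in the treated tumours. Its log2 difference of 1.03 ± 0.51 (SE, edgeR adjusted p = 0.98) was 0.55 without that library. Naaa, a lysosomal amidase abundant in that lineage, moved from 0.38 to 0.03. Some other genes on the same list did not share the pattern. Cadm1 and Cd24a were lowest in anti-LAIR1 replicate 4, at 118 and 477 CPM against 146 to 170 and 534 to 625 CPM elsewhere. Id2, at 68.1 CPM there, lay within the 63.8 to 99.8 CPM of the other libraries. Tlr3 had 41.3 CPM there and 43.9 CPM in anti-LAIR1 replicate 1.

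Sirpa, Mgl2 and Itgax, which macrophages also express, kept log2 differences of at least 0.5 without anti-LAIR1 replicate 4. So did Clec10a (1.85), Ifi205 (1.04), Irf4 (0.99), Klf4 (0.61), Irf8 (0.55) and Tlr3 (0.51) on the same list. In that fit each of these genes had an edgeR adjusted p of 0.742 or more. Sirpa, an inhibitory receptor of myeloid cells, had 32.1, 36.6 and 42.9 CPM in controls and 51.3, 51.6, 54.7 and 56 CPM in the treated group. Its log2 difference was 0.53 ± 0.11 (SE, edgeR adjusted p = 0.624) and 0.5 without anti-LAIR1 replicate 4, and DESeq2 gave it an adjusted p of 0.0251. Mgl2, a galactose-binding lectin, had 3.25, 5.39 and 2.85 CPM in controls and 6.72, 6.72, 10.6 and 17.9 CPM in the treated group (log2 difference 1.45 ± 0.41, SE, edgeR adjusted p = 0.753). Itgax, the integrin CD11c, differed by 0.79 ± 0.21 (log2, SE, edgeR adjusted p = 0.69). Without anti-LAIR1 replicate 4, Mgl2 was at 1.06 and Itgax at 0.63. With all libraries, the DESeq2 adjusted p was 0.0503 for Mgl2, 0.119 for Itgax and 0.00948 for the macrophage marker Csf1r. All 10 macrophage markers had a positive log2 fold change (median 0.39, summed level 331 to 521 CPM in controls and 433 to 560 CPM in the treated group). Their part in the levels of Sirpa, Mgl2 and Itgax was not tested.

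**Figure D4:**
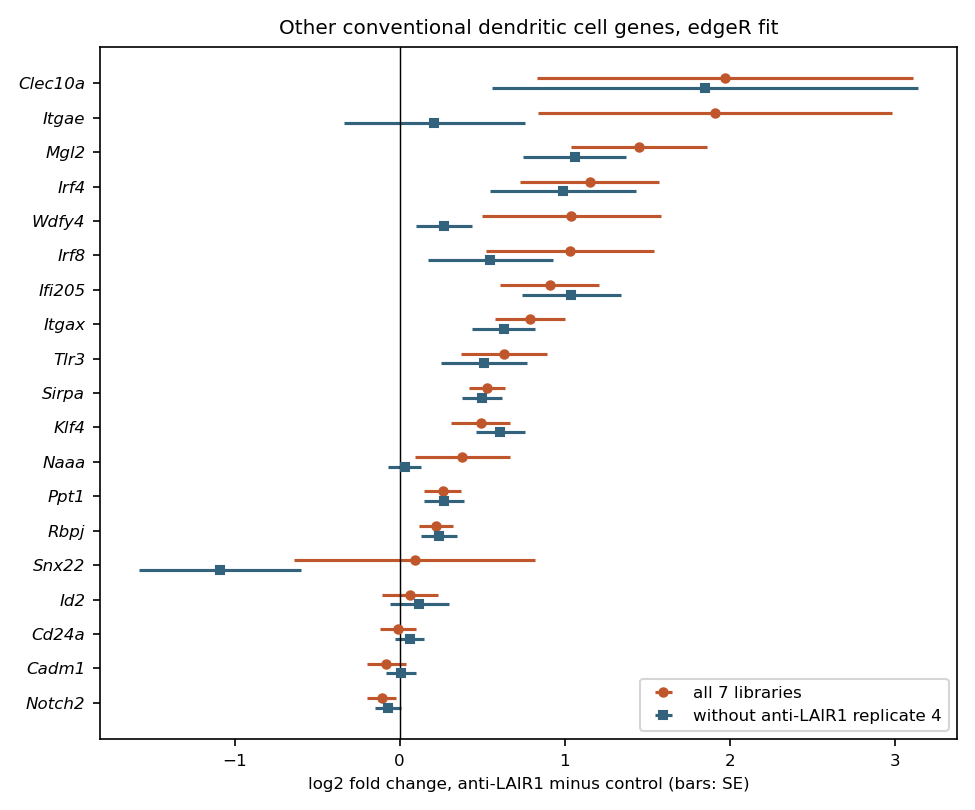
Log2 fold change (anti-LAIR1 minus control, horizontal axis, bars show the SE) of 19 other conventional dendritic cell genes, fitted with all 7 libraries (circles) and without anti-LAIR1 replicate 4 (squares). Itgae, Wdfy4 and Naaa move close to 0 without it (0.21, 0.27 and 0.03), while Sirpa moves from 0.53 to 0.5 and Mgl2 from 1.45 to 1.06.

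The wider maturation programme showed no common direction. Of 26 listed genes 22 were tested, 11 with a positive and 11 with a negative log2 fold change, and the median was 0.04. None passed the adjusted test, and 2 had an unadjusted p under 0.05, Cd86 and Il15ra, both higher, where 3.51% of all genes were. That count was 0 without anti-LAIR1 replicate 4 or without control replicate 2. Cd86, a costimulatory ligand that macrophages share, had 3.88, 3.07 and 2.14 CPM in controls and 4.48, 4.66, 5.09 and 5.96 CPM in the treated group, which separated. On the log2 scale it differed by 0.71 ± 0.26 (SE, edgeR adjusted p = 0.933). Ccl17, the other main ligand of Ccr4, had -0.16 (SE 0.35), and Cd40, a receptor for T cell help, had 0.26 (SE 0.42), each with an edgeR adjusted p of 1. Il12b, which encodes a cytokine subunit of mature cells, had 4 reads over all libraries.

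Among partners of the members, Flt3l, the ligand of Flt3, had 5.31, 1.65 and 3.05 CPM in controls and 7.51, 3.72, 3.45 and 6.39 CPM in the treated group. The difference was 0.63 ± 0.42 (log2, SE, edgeR adjusted p = 1). Xcl1, the ligand of Xcr1, had 4 reads in the controls and 15 in the treated group, and was highest in anti-LAIR1 replicate 4, at 0.872 CPM. Ccr4 had 2 reads in all. Ccl19 and Ccl21a, the ligands of Ccr7, and the Ccl21a copies Ccl21b and Ccl21c were listed at 0 throughout. Csf2rb2, a receptor subunit closely similar to Csf2rb whose counts are uncertain for that reason, had 11.8 to 15.8 CPM in controls and 18.7 to 25.1 CPM in the treated group (log2 difference 0.73 ± 0.15, SE, edgeR adjusted p = 0.624, DESeq2 adjusted p = 0.0163).

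Markers of other dendritic cell kinds were scarce. Siglech, a receptor of plasmacytoid dendritic cells, had 1 read in the controls and 21 in the treated group, with no library above 0.654 CPM. Cd207, the langerin of Langerhans cells, had 4 reads over all libraries. Of the 10 plasmacytoid genes 4 were tested (median log2 fold change 0.02), and Tcf4, Bst2 and Runx2 among them are widely expressed. With no count filter all 10 were fitted, 8 of them positive, with a median of 1.45 against 0 over all genes. In that fit Siglech (3.67) and Ccr9 (2.27) had an unadjusted edgeR p under 0.05, with an adjusted p of 0.918 each. Ccr9 (28 reads in all) separated the groups and Spib (22 reads in all) did not. Both were highest in anti-LAIR1 replicate 4, at 0.944 CPM.

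Library profiles closest to each tested member were found as the smallest root mean square difference of centred log2 CPM over the 7 libraries, among 13136 genes. For Cd83 these were Irgm2, an interferon-inducible GTPase (0.24), and Cd22 (0.26). For Zbtb46 they were Mterf1a (0.09) and Sdc3 (0.12), for Fscn1 Slc7a6 (0.04) and Pex5 (0.06), for Ccr7 Bmyc (0.51) and Hist1h2bm (0.54), and for Ccl22 Alb (0.5) and Rasl12 (0.57). The same measure for members below the count filter, added after their values were seen, placed Itgb7 (0.83) and Dnase1l3 (0.89) next to Xcr1, and Itgb7 (0.4) and Itgae (0.41) next to Clec9a.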

How the data were processed

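Polyadenylated RNA of 7 tumours was sequenced as directional single-read libraries, per the labels' protocols. The authors deposited raw read counts per gene symbol, 1 column per mouse. The submitters' processing notes name mm10 as the build and, as tools, edgeR 3.40.1, featureCounts 2.0.1, STAR 2.7.6 and Trim Galore. Which annotation and strand setting they used, and how multiply matching reads were treated, is not recorded there.

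The main test was edgeR 4.0.16 (R 4.3.3), with filterByExpr (minimum count 10), TMM scaling, a robust quasi-likelihood model holding treatment alone, and p-values Benjamini-Hochberg adjusted over all genes tested (threshold 0.05). The SE of each edgeR log2 fold change was derived from that test, as its absolute value divided by the square root of the F statistic. The fit was tested on simulated data. Alternatives included DESeq2 1.42.0 and quality-weighted voom from limma 3.58.1. Nothing beyond the mouse names says how samples were raised, so p-values measure the spread between these mice. Replicate numbers follow accession order. The lowest Spearman correlation between libraries, across genes, was 0.977. Gene positions come from RefSeq and exon lengths from GENCODE M21, both on GRCm38, the assembly that mm10 names.

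The members, the lists and the rule for named genes were chosen with earlier results of these data known: the 10 members, up to 3 genes with the smallest p from each list, and fixed partners. Itgae, Wdfy4, Naaa, Snx22, Ifi205, Il12b, Cd207, Cxcl13 and the genes named for anti-LAIR1 replicate 4 were chosen after their values were seen. So were Cadm1, Cd24a, Id2, Tlr3, Ccr9, Spib, Clec10a, Irf4 and Klf4. Figures were drawn with matplotlib 3.10.9.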

Additional observations from a re-analysis of the deposited data

Results flagged for a closer look

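Among the 66 genes named or eligible to be named, 8 had 1 anti-LAIR1 library apart from the other 3, judged by the gap to its nearest neighbour as a share of the group's whole range (critical value 0.829 for 4 samples). Chance flags about 1 in 20 groups, but Itgae, Wdfy4 and Snx22 were chosen after their values were seen, so the count of 8 is not to be read against that rate. In 6 of the 8 the library was anti-LAIR1 replicate 4, at its high end. The gap was 0.954 for Xcr1, 0.922 for Clec9a, 0.854 for Flt3, 0.907 for Itgae, 0.968 for Wdfy4 and 0.906 for Snx22, a sorting nexin gene (3.05 CPM there and 0.345 to 0.599 CPM in the other treated tumours). Of these, Xcr1, Clec9a and Flt3 are members, and Itgae, Wdfy4 and Snx22 come from the list of other conventional dendritic cell genes. Over all 13545 genes tested, that library stood apart in 2.67%, and anti-LAIR1 replicates 1, 2 and 3 in 1.3%, 0.819% and 0.938%. The remaining gaps were 0.917 for Cxcr2, a neutrophil chemokine receptor, in anti-LAIR1 replicate 3, and 0.926 for Fabp4, a fat cell lipid carrier, in anti-LAIR1 replicate 2.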

How the results depend on the processing

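No member passed the adjusted threshold under any of the 16 alternatives. The count over all genes was 0 in each except DESeq2, with 54, and the fits that left out 1 library, with 0 to 3 (the 3 came without anti-LAIR1 replicate 2). The members' median log2 fold change ran from 0.17 to 0.96 without single libraries, and from 0.11 with muscle level as a covariate to 0.98 with no count filter, when 9 members were fitted. Directions turned for Ccr7 with limma-voom (-0.16) and without control replicate 1 (-0.05, the fits without 1 library reaching 1.39), for Fscn1 with Ptprc (0.12) or muscle level (0.07) as a covariate, for Ccl22 with muscle level as a covariate (-0.39), and for Zbtb46 without control replicate 3 (-0.03, the fits without 1 library reaching 0.49). The cause was not tested. Cd83 kept its direction in all 16. The 18 levels relative to Ptprc or to the macrophage list moved by less than 1 SD with a prior count of 0.5. The list counts without anti-LAIR1 replicate 4 were chosen after seeing the data. No paired analysis was possible because the labels give no replicate numbers. Depth limits Flt3, Xcr1, Clec9a and Batf3, which had 29 to 96 reads in all and were fitted by edgeR only with no count filter.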

Other observations

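Anti-LAIR1 replicate 4 held 56 genes, of 15049 with at least 20 reads in all, at 3 times or more the level of every other library. Anti-LAIR1 replicate 2 held 46, control replicate 3 held 41, and each of the other 4 libraries between 1 and 10. Besides Xcr1, Clec9a, Flt3, Itgae and Wdfy4, the 56 included Ido1, which encodes a tryptophan-degrading enzyme, at 91 CPM there and 2.39 to 10.3 CPM elsewhere. Also among them were Itgb7, the integrin partner of Itgae (18.5 CPM against 1.35 to 3.99), Dnase1l3, a secreted nuclease (7.63 against 0.593 to 1.66), and Btla, an inhibitory receptor of lymphocytes and dendritic cells (3.12 against 0 to 0.95). H2-Oa and H2-Ob, which together form a modulator of MHC class II peptide loading, had 1.53 and 2.98 CPM there and no more than 0.407 and 0.911 CPM elsewhere.

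The same 56 held genes with other roles. Cldn18, a tight junction gene, had 85.4 CPM there and 5.74 to 26.7 CPM elsewhere, Ros1, a receptor tyrosine kinase, 79.7 against 3.17 to 25.4, and Gstm1, a glutathione transferase, 317 against 66.3 to 99.2. T cell markers summed to 38 CPM in that library, near the 35.2 CPM of anti-LAIR1 replicate 1, where Xcr1 and Clec9a had 0 reads. The part of T cells in the pattern of anti-LAIR1 replicate 4 was not tested. All these genes were picked after their values were seen and are descriptions of 1 tumour.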
